A study of Canis lupus familiaris with 24 samples.

Results

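CCL3, CCL4, CCL5 and CCL20 are genes of inflammatory CC chemokines, small secreted proteins that draw leukocytes into tissue. Their probes were found by the RefSeq accession attached to each probe, matched without its version to the dog gene of that symbol. All 4 genes were on the array, each with 1 probe and 1 spot, and all 4 passed the filter on dim probes, among 27720 genes or unnamed transcripts tested, 718 of them with a symbol. RNA came from peripheral lymph node cells of 4 dogs with B-cell lymphoma, taken by fine needle aspiration at a drug-resistant and at a drug-sensitive phase. Dog 1 was a male Shih Tzu of 10 years, dog 2 a male Doberman of 9 years, dog 3 a castrated male French Bulldog of 3 years and dog 4 a spayed female French Bulldog of 5 years. The 8 groups were therefore the resistant and the sensitive phase of each dog, with 3 one-colour Agilent arrays per group and 24 arrays in all. The drugs, the interval between the phases and whether the 3 arrays of a group came from separate aspirates are not given in the sources used here, so that a p-value for 1 dog rests on array-to-array scatter, which may be technical.

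As background, CCL3 and CCL4 (macrophage inflammatory proteins 1 alpha and 1 beta) and CCL5 (RANTES) are made by activated T cells, NK cells, macrophages and activated B cells. They act through chemokine receptors on leukocytes, CCL3 and CCL5 among others through CCR1. CCL20 acts through the receptor CCR6, which is carried by B cells, memory T cells and immature dendritic cells. In lymph nodes these ligands bring T cells, dendritic cells and antigen-presenting cells together, and in human B-cell malignancies CCL3 and CCL4 are known as genes that B cell receptor signalling switches on. In the dog gene annotation CCL3 and CCL4 lay side by side on chromosome 9 with 0 annotated genes between them. CCL5 lay on the same chromosome, with 6 annotated genes between it and CCL3, whereas CCL20 lay on chromosome 25.

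Levels below are log2 processed signals relative to the 75th percentile of each array's signals, so that 0 is that percentile and each unit is a factor of 2. A spot was well above background where the scanner software marked it so. This held for 71.0% to 80.9% of spots per array, the 75th percentile was 676 to 1117 signal units, and the median r between arrays of the same group was 0.992. The number of arrays limits the precision. The B cell genes MS4A1 (CD20) and CD40 were well above background on all 24 arrays, at 3.37 to 4.34 and 5.37 to 6.04. They were the measured members, 2 of 12, of a B cell marker list, and 0 of 7 epithelial markers were measured. The arrays filled 7 slides. In dog 4 all resistant arrays lay on a slide of their own, scanned on another day, so that slide, scan day and phase cannot be told apart in that dog. In dogs 1, 2 and 3, 1 slide each held arrays of both phases.

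CCL3, CCL4 and CCL5 were lower in the resistant than in the sensitive phase in dogs 1, 2 and 3, most of all in dog 2, where they were 75.3-fold to 115.6-fold lower. The differences in dog 3 were small: CCL5 was 1.84-fold lower, and CCL3 was 2.04-fold lower with 1 of 3 resistant arrays well above background. In dog 4 none of the 3 genes moved by as much as 2-fold. CCL20 followed another course: it was 25.6-fold lower in the resistant phase of dog 3, 2.37-fold higher in that of dog 4, and within 2-fold in dogs 1 and 2. In bulk RNA of an aspirate, fewer cells of a type and less RNA per cell cannot be told apart.

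CCL4 was well above background on all 24 arrays. In dog 2 it stood at -1.37, -1.36 and -1.33 on the resistant arrays, against 5.50, 5.53 and 5.47 on the sensitive arrays. In dog 1 it stood at -2.89, -2.78 and -2.79 on the resistant arrays, against 0.25, 0.31 and 0.46 on the sensitive arrays. The phases did not overlap in either dog, and the arrays of a phase lay far closer to each other than to those of the other phase. In dog 3 the resistant arrays gave -3.22, -2.83 and -3.07, against -1.82, -1.89 and -1.87 on the sensitive arrays. In dog 4 they gave -2.71, -2.63 and -2.58, against -2.35, -2.08 and -2.27 on the sensitive arrays. Every resistant array was thus below every sensitive array of the same dog, by a narrow margin in dog 4. Of all genes tested, 33.6%, 26.5%, 26.6% and 23.7% had arrays that did not overlap in this direction in dogs 1 to 4.

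CCL5, also well above background on all 24 arrays, had nearly the same pattern. In dog 2 it stood at -1.17, -1.10 and -1.01 on the resistant arrays, against 5.12, 5.16 and 5.14 on the sensitive arrays. In dog 1 it stood at -2.57, -2.67 and -2.72 on the resistant arrays, against 0.15, 0.25 and 0.36 on the sensitive arrays. The sensitive arrays of dog 2 were the highest of the series for CCL5. In dog 3 the resistant arrays gave -1.81, -1.74 and -1.81, against -0.80, -0.86 and -1.05 on the sensitive arrays. In dog 4 they gave -1.27, -1.05 and -1.12, against -1.36, -1.71 and -1.28 on the sensitive arrays. The order of the phases was thus turned in dog 4, where the lowest resistant array and the highest sensitive array were 0.00704 apart.

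CCL3 was the dimmest of these probes, well above background on 21 of 24 arrays. In dog 2 it stood at -4.98, -4.12 and -4.96 on the resistant arrays, against 1.76, 1.71 and 1.76 on the sensitive arrays. In dog 1 it stood at -5.35, -6.05 and -5.89 on the resistant arrays, against -2.16, -2.20 and -2.17 on the sensitive arrays. The groups did not overlap in these dogs, and the scatter between arrays was wider on the dim resistant side. In dog 3 the resistant arrays gave -5.60, -6.69 and -6.82, of which only the first was well above background, against -5.27, -5.17 and -5.58 on the sensitive arrays. In dog 4 the resistant arrays gave -5.60, -5.27 and -5.04, against -5.06, -6.20 and -6.24 on the sensitive arrays, of which the last was not well above background. The phases overlapped in dog 4, and in dog 3 the brightest resistant array lay just below the dimmest sensitive one.

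CCL20 was well above background on all 24 arrays and had its highest level in another dog. In dog 3 it stood at -2.29, -2.36 and -2.37 on the resistant arrays, against 2.32, 2.32 and 2.38 on the sensitive arrays. In dog 4 it stood at -2.32, -2.33 and -2.03 on the resistant arrays, against -3.54, -3.41 and -3.47 on the sensitive arrays. The French Bulldogs thus differed in direction. In dog 1 the resistant arrays gave -2.01, -1.90 and -1.88, against -1.24, -1.25 and -1.33 on the sensitive arrays. In dog 2 they gave -3.77, -3.86 and -3.78, against -4.46, -4.36 and -4.33 on the sensitive arrays. The phases did not overlap in any dog: resistant arrays were lower in dogs 1 and 3 and higher in dogs 2 and 4. Of all genes tested, 33.6% in dog 1 and 26.6% in dog 3 had arrays that did not overlap with the resistant phase lower. The share with the resistant phase higher was not counted.

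**Figure D1:**
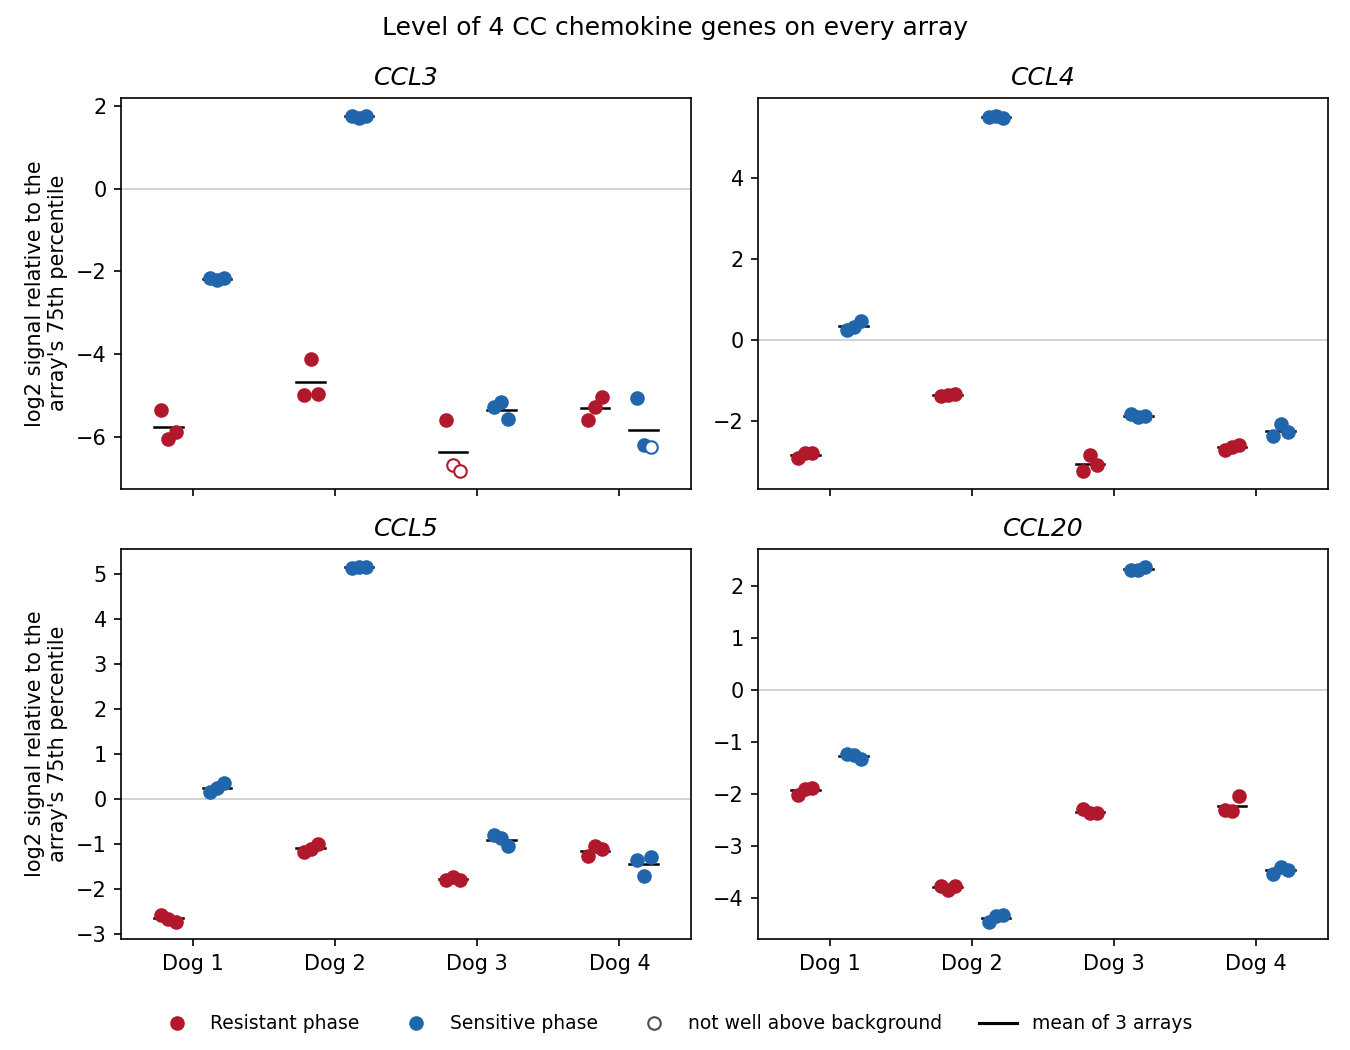
Level of CCL3, CCL4, CCL5 and CCL20 on each of the 24 arrays, as log2 signal relative to the array's 75th percentile (vertical axis, its range differing between panels), by dog (horizontal axis), with the resistant phase in red on the left and the sensitive phase in blue on the right; black bars are means of 3 arrays and open points were not well above background. The sensitive arrays of dog 2 stand highest for CCL3, CCL4 and CCL5, and the sensitive arrays of dog 3 for CCL20.

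Each phase change was tested with limma's moderated test on all 24 arrays, with p-values adjusted by the Benjamini-Hochberg method over all 27720 genes, and a gene was called where the adjusted p was under 0.05 and the change at least 2-fold. In dog 1, CCL3 (-3.59, SE 0.33, adjusted p = 3.90e-08), CCL4 (-3.16, SE 0.08, adjusted p = 5.52e-16) and CCL5 (-2.91, SE 0.09, adjusted p = 1.19e-14) fell on the log2 scale. These are levels 12.0-fold, 8.94-fold and 7.50-fold lower in the resistant phase. CCL20 in dog 1 had a change of -0.66 (SE 0.06, adjusted p = 8.63e-08), which passed the test and stayed under 2-fold. Of all genes tested in dog 1, 8.11% were called lower and 3.83% higher.

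In dog 2, CCL4 was 115.6-fold, CCL3 86.2-fold and CCL5 75.3-fold lower in the resistant phase (limma adjusted p = 3.84e-21, 6.56e-12 and 8.13e-20). Among the 27720 genes and transcripts these falls ranked 10, 16 and 19 by size, from the largest. CCL20 had a change of 0.58 (SE 0.06, adjusted p = 3.01e-07), again under 2-fold. The calls of all genes in dog 2 were 9.84% lower and 3.98% higher.

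In dog 3, CCL20 fell by 4.68 (SE 0.06, adjusted p = 1.75e-19), which ranked 25 among all falls, and CCL4 fell by 1.18 (SE 0.08, adjusted p = 1.11e-09). CCL5 had a change of -0.88 (SE 0.09, adjusted p = 3.42e-07), or 1.84-fold. CCL3 passed both thresholds by a small margin, with a change of -1.03 (SE 0.33, adjusted p = 0.0166). This call was lost with the slide as a block (-0.26, adjusted p = 0.679), and also without resistant array 2 (-0.87), resistant array 3 (-0.81), sensitive array 1 (-0.999, adjusted p = 0.0448, just under 2-fold) or sensitive array 2 (-0.95). With normexp, another background correction followed by quantile normalisation, CCL4 in dog 3 stayed under 2-fold as well (-0.80). Of all genes tested in dog 3, 5.43% were called lower and 1.34% higher.

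In dog 4, CCL20 rose by 1.25 (SE 0.06, adjusted p = 4.01e-11), whereas CCL4 had a change of -0.41 (SE 0.08, adjusted p = 5.24e-04) and CCL5 of 0.30 (SE 0.09, adjusted p = 0.0129). CCL3 did not pass the test there (0.53, 95% interval -0.17 to 1.23, adjusted p = 0.204). The CCL20 call was lost with normexp background correction (0.83). With the slide as a random block CCL5 no longer passed (0.30, adjusted p = 0.0925). Of all genes tested in dog 4, 1.5% were called lower and 4.06% higher.

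**Figure D2:**
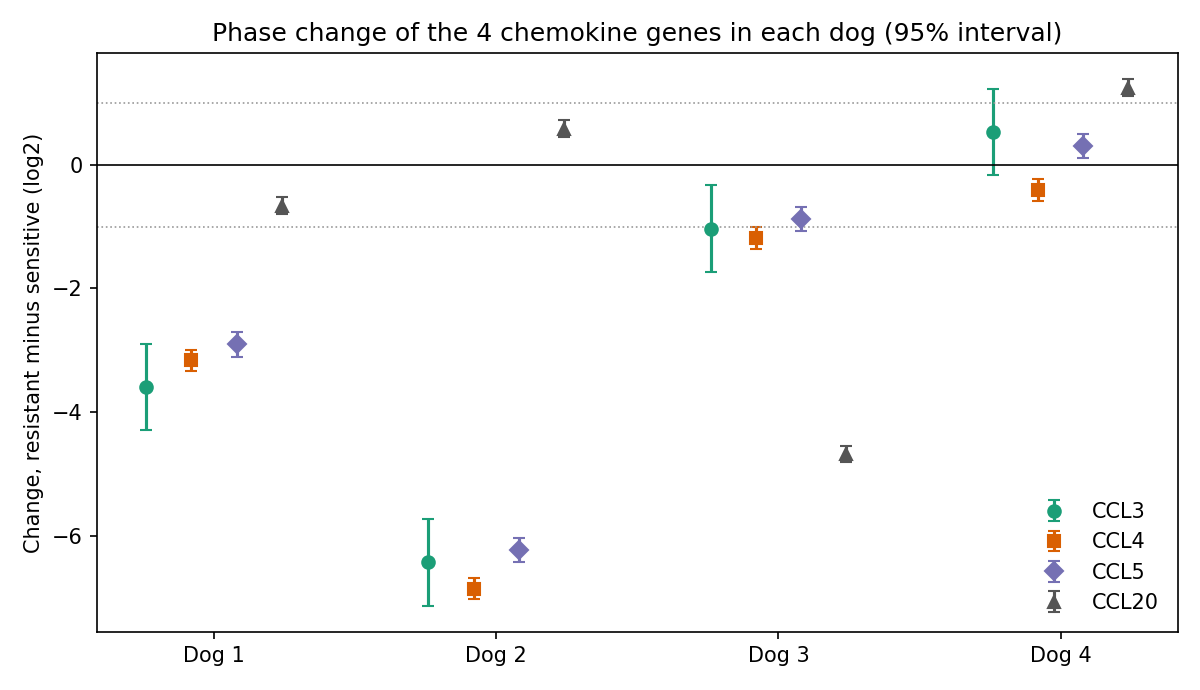
Phase change of the 4 chemokine genes in each dog, resistant minus sensitive on the log2 scale (vertical axis), with 95% intervals from the fit on 24 arrays; the solid line is no change and the dotted lines are 2-fold. CCL3, CCL4 and CCL5 are lowest in dog 2, while CCL20 is lowest in dog 3 and above the upper dotted line in dog 4.

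The phase change differed among the 4 dogs for each of the 4 genes. Limma's F-test of the dog-by-phase interaction gave adjusted p = 1.25e-09 for CCL3, 5.40e-18 for CCL4, 3.75e-17 for CCL5 and 6.08e-19 for CCL20. This test passed for 78.8% of all genes, so that passing it does not set these genes apart. The 6 differences between pairs of dogs were adjusted over all genes and all pairs together, and all 24 differences of the 4 genes passed, against 59.2% of all genes for dog 2 minus dog 1, 52.4% for dog 3 minus dog 1, 54.5% for dog 4 minus dog 1, 50.7% for dog 3 minus dog 2, 54.3% for dog 4 minus dog 2 and 45% for dog 4 minus dog 3. For CCL4 the change in dog 4 exceeded that in dog 2 by 6.44 (SE 0.12, adjusted p = 4.15e-18), the widest gap, and that in dog 3 by 0.77 (SE 0.12, adjusted p = 1.84e-05), the narrowest. For CCL20 the change in dog 4 exceeded that in dog 3 by 5.92 (SE 0.09, adjusted p = 5.42e-19). The difference between dogs 4 and 3 for CCL3 (1.56, SE 0.47, adjusted p = 0.00937) was lost with normexp background correction (0.26, adjusted p = 0.0510) and with the slide as a random block (1.19, adjusted p = 0.123).

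Across dogs, with the 4 dogs as the replicates, no member passed. The mean change was -2.90 for CCL4 (SE 1.11, 95% interval -5.72 to -0.08, lower in 4 of 4 dogs), with an unadjusted limma p of 0.0457 and an adjusted p of 0.857. It was -2.63 for CCL3 (SE 1.17, lower in 3 of 4 dogs) and -2.43 for CCL5 (SE 1.10, lower in 3 of 4 dogs), with adjusted p = 0.886 for both in limma. CCL20 averaged -0.88 (SE 1.02, lower in 2 of 4 dogs, adjusted p = 0.896), and its sign turned without dog 3 (0.39). Without dog 2 the means were -1.58 for CCL4, -1.36 for CCL3, -1.16 for CCL5 and -1.36 for CCL20. In this fit 0 of 27720 genes (0%) passed with limma after adjustment, and 1603 (5.78%) had an unadjusted p under 0.05. With the group of 3 arrays as a random block in place of group means, CCL4 and CCL5 passed in limma (adjusted p = 0.00291 and 0.0117). That fit takes arrays rather than dogs as its units, so it does not replace the test over dogs. Many other genes passed it too, and their number is given in the closing section. CCL4 was among the 7.09% of all genes that were lower in 4 of 4 dogs, and CCL3 and CCL4 were among the 377 genes (1.36%) called lower in dogs 1, 2 and 3.

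The 4 dog means lay closer together in the resistant than in the sensitive phase. The SD of the 4 dog means was 0.71 in the resistant and 3.50 in the sensitive phase for CCL3, and 0.76 in the resistant and 3.56 in the sensitive phase for CCL4. For CCL5 it was 0.73 in the resistant and 3.01 in the sensitive phase, and for CCL20 it was 0.84 in the resistant and 2.99 in the sensitive phase. The SD in the sensitive phase was thus 3.58 to 4.90 times that in the resistant phase, against a median of 0.956 times over all genes, and 2.43% of all genes had a ratio at or above the lowest of the 4. In the sensitive phase 1 dog stood far above the others for each gene. For CCL3, CCL4 and CCL5 this was dog 2, at 1.75, 5.50 and 5.14, with dog 1 next at -2.17, 0.34 and 0.25. For CCL20 it was dog 3, at 2.34, with dog 1 next at -1.27. The ratios of SDs without the highest dog were not computed. The comparison of SDs was chosen after the values were seen and carries no test. For CCL3 the dim resistant arrays of dog 3, with 1 of 3 well above background, limit it.

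Over the 8 groups CCL4 was highest in the sensitive phase of dog 2 (5.50 ± 0.03, SD, n = 3 arrays), followed by the sensitive phase of dog 1 (0.34 ± 0.11) and the resistant phase of dog 2 (-1.35 ± 0.02). It was lowest in the resistant phases of dog 3 (-3.04 ± 0.20) and dog 1 (-2.82 ± 0.06), whose arrays overlapped. No other neighbours in the order overlapped for CCL4. CCL5 was highest in the sensitive phases of dog 2 (5.14 ± 0.02) and dog 1 (0.25 ± 0.10) and lowest in the resistant phase of dog 1 (-2.65 ± 0.08). The sensitive phase of dog 3, the resistant phase of dog 2 and the resistant phase of dog 4 followed each other for CCL5 with overlapping arrays. For CCL3 the resistant phase of dog 4, the sensitive phase of dog 3, the resistant phase of dog 1, the sensitive phase of dog 4 and the resistant phase of dog 3 formed a run in which each overlapped the next, between -5.30 ± 0.28 and -6.37 ± 0.67. CCL20 was highest in the sensitive phase of dog 3 (2.34 ± 0.04) and lowest in the sensitive phase of dog 2 (-4.38 ± 0.07), the group in which the other 3 genes were highest. Only the resistant phases of dogs 4 and 3 overlapped as neighbours in the order for CCL20.

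Across the 8 group means, Pearson's r was 0.988 between CCL3 and CCL4, 0.982 between CCL4 and CCL5 and 0.964 between CCL3 and CCL5. CCL20 had r of -0.34 with CCL3, -0.36 with CCL4 and -0.33 with CCL5, and with the mean of each dog removed these were 0.11, 0.08 and 0.08. These values are descriptions: the points are 8 groups from 4 dogs, with a high point in the sensitive phase of dog 2 for the first 3 genes. Among the 718 genes with a symbol, the 5 most like CCL4 were CCL3, CCL5, EMR4 (r = 0.953, an adhesion receptor of myeloid cells), CD8A (0.948, the CD8 alpha chain of cytotoxic T cells) and PDPN (0.935, podoplanin, a surface protein of lymph node stroma and lymphatic endothelium). CCL3 had the same neighbours in another order: CCL4, EMR4 (0.966), CCL5, PDPN (0.959) and CD8A (0.919). Those of CCL5 were CCL4, CCL3, IFNG (0.953, interferon gamma), CSN2 (0.946, beta-casein) and CD8A (0.942), of which IFNG and CSN2 were well above background on only 3 of 24 arrays. None of CCL3, CCL4 and CCL5 was among the 5 genes most like CCL20, which were TACR2 (0.936), DCN (0.913, decorin), RCVRN (0.879), CD1A6 (0.827) and LOC403631 (0.770). RCVRN was well above background on 4 and TACR2 on 13 of 24 arrays.

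Of a list of 8 receptors that bind the 4 chemokines or are known to scavenge or present them, 3 were measured and are described, and CCR6 was not analysed here. In dogs 1 to 4, 0 of the 3 fell and 1, 1, 2 and 0 rose. Their median changes were 0.25, -0.71, 1.27 and 0.30, beside medians of -0.06, 0.11, 0.02 and 0.07 over all genes. The shares of all genes called higher were 3.83%, 3.98%, 1.34% and 4.06%. CCR1, the receptor of CCL3 and CCL5 on monocytes and other myeloid cells, rose in dog 1 (1.12, SE 0.06) and dog 3 (1.27, SE 0.06), with changes of -0.71 in dog 2 and 0.30 in dog 4. CCR3, a receptor of CCL5 best known on eosinophils, rose in dog 2 by 5.21 (SE 0.21, adjusted p = 1.54e-13) and in dog 3 by 1.29 (SE 0.21, adjusted p = 5.16e-05), and its changes were -0.32 in dog 1 and 0.32 in dog 4. The calls of CCR1 in dogs 1 and 3 and of CCR3 in dog 3 stayed under 2-fold with normexp background correction (0.93, 0.72 and 0.72). CCR4, a receptor of helper T cells best known for CCL17 and CCL22, was not called in any dog, with changes between -0.95 and 0.25. In dog 2 the resistant group was thus low in CCL3, CCL4 and CCL5 and high in CCR3.

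Of 18 other CC chemokines, 11 were measured. In dogs 1 to 4, 5, 3, 3 and 1 of the 11 fell and 1, 0, 0 and 3 rose, with median changes of -0.35, -0.14, -0.22 and 0.02. The shares of all genes were 8.11%, 9.84%, 5.43% and 1.5% called lower and 3.83%, 3.98%, 1.34% and 4.06% called higher. CCL8, a chemokine of monocytes, was the gene of this list called lower in both dog 1 (-2.06, SE 0.14) and dog 2 (-3.00, SE 0.14). Its changes in dogs 3 and 4 were -0.22 and -0.85. CCL2, the main monocyte chemokine, fell in dog 1 (-3.67, SE 1.30, limma adjusted p = 0.0241). Its changes were -3.03 in dog 2 (adjusted p = 0.0542, called in 2 of 16 alternatives), 2.32 in dog 3 (adjusted p = 0.168) and -1.45 in dog 4 (adjusted p = 0.392). Its SE is shared by the dogs, and the sensitive arrays of dog 3, 2 of 3 of them well above background, had an SD of 4.67, against 0.01 to 0.06 in the other 7 groups. The change in dog 3 was -0.38 without its sensitive array 1 and 3.64 and 3.68, both called, without its sensitive arrays 2 and 3. The call in dog 1 was lost without any of sensitive arrays 1, 2 and 3 or resistant arrays 2 and 3 (adjusted p between 0.0513 and 0.0531) or with the slide as a block (adjusted p = 0.178).

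CCL19 and CCL21, ligands of CCR7 that lymph node stroma makes to guide T cells and dendritic cells, had changes in both directions. CCL19 rose in dog 1 by 2.50 (SE 0.04) and fell in dogs 2, 3 and 4 (-2.88, -2.66 and -1.28, SE 0.04 each). CCL21 fell in dogs 2 and 3 (-2.80 and -1.57, SE 0.06 each), and its changes in dogs 1 and 4 were 0.58 and -0.34. CCL17, a ligand of CCR4, fell in dog 1 (-2.52, SE 0.17), and its changes in dogs 2, 3 and 4 were 0.72, -0.58 and 0.02. In a dim group a gene has only a bound: in dog 1 CCL1 was at least 3.80-fold and CCL7 at least 2.51-fold lower in the resistant phase (limma adjusted p = 1.26e-13 and 0.00543). CCL24 was at least 1.56-fold lower in the resistant phase of dog 3, and CCL7, CCL24 and CCL28 were at least 1.75-fold, 1.90-fold and 1.86-fold higher in that of dog 4. The higher values in dog 4 rest on few arrays: CCL7 was well above background on 2 of 3 and CCL24 on 1 of 3 resistant arrays, and the arrays of CCL7 overlapped between the phases. Without resistant array 2 of dog 4 the change of CCL7 was 0.65 (adjusted p = 0.265) and that of CCL24 was 0.98 (adjusted p = 0.0718), and the call of CCL7 was lost in 9 of 14 alternatives and that of CCL24 in 5 of 14. With the slide as a block, CCL7 in dog 1 (-1.98, adjusted p = 0.137) and CCL24 in dog 3 (-2.51, adjusted p = 0.0711) were no longer called. With normexp the calls of CCL1, CCL7, CCL8 and CCL17 in dog 1, of CCL24 in dogs 3 and 4 and of CCL7 and CCL28 in dog 4 were lost, with changes between -0.86 and 0.43. CCL25 and CCL27 were not called in any dog, with changes between -0.26 and 0.63 for CCL25 and between -0.21 and 0.25 for CCL27.

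Of 13 CXC and other chemokines 3 were measured. CXCL10, an interferon-induced ligand of CXCR3, fell in dog 2 (-8.40, SE 0.08, adjusted p = 1.42e-22) and rose in dog 1 by 2.88 (SE 0.08, adjusted p = 1.06e-15), with changes of 0.07 in dog 3 and -0.16 in dog 4. It therefore shared its direction with CCL4 in dog 2 and opposed it in dog 1. CXCL12, a stromal chemokine, fell in dogs 1 to 4, with changes of -2.77, -1.77, -1.89 and -1.69 (SE 0.05 each), of which those in dogs 1 and 2 stayed under 2-fold with normexp (-0.91 and -0.95). CXCL8, the main neutrophil chemokine, fell in dog 1 by 1.22 (SE 0.13) on its brightest probe, and its 4 probes gave changes between -4.56 and -1.22 in dog 1 and between -3.20 and -0.63 in dog 2. Its call in dog 1 was lost with normexp (-0.38), quantile normalisation (-0.96) and the authors' deposited value table (-0.68). Of 15 other chemokine receptors 3 were measured. The scavenging CXCL12 receptor ACKR3 fell in dogs 1 and 3 (-1.96 and -1.36, SE 0.04 each), the neutrophil receptor CXCR2 fell in dog 1 (-2.17, SE 0.50), and CXCR3 was not called in any dog. The call of CXCR2 was lost with the slide as a block (-0.60, adjusted p = 0.399) and with normexp (-0.67).

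**Figure D3:**
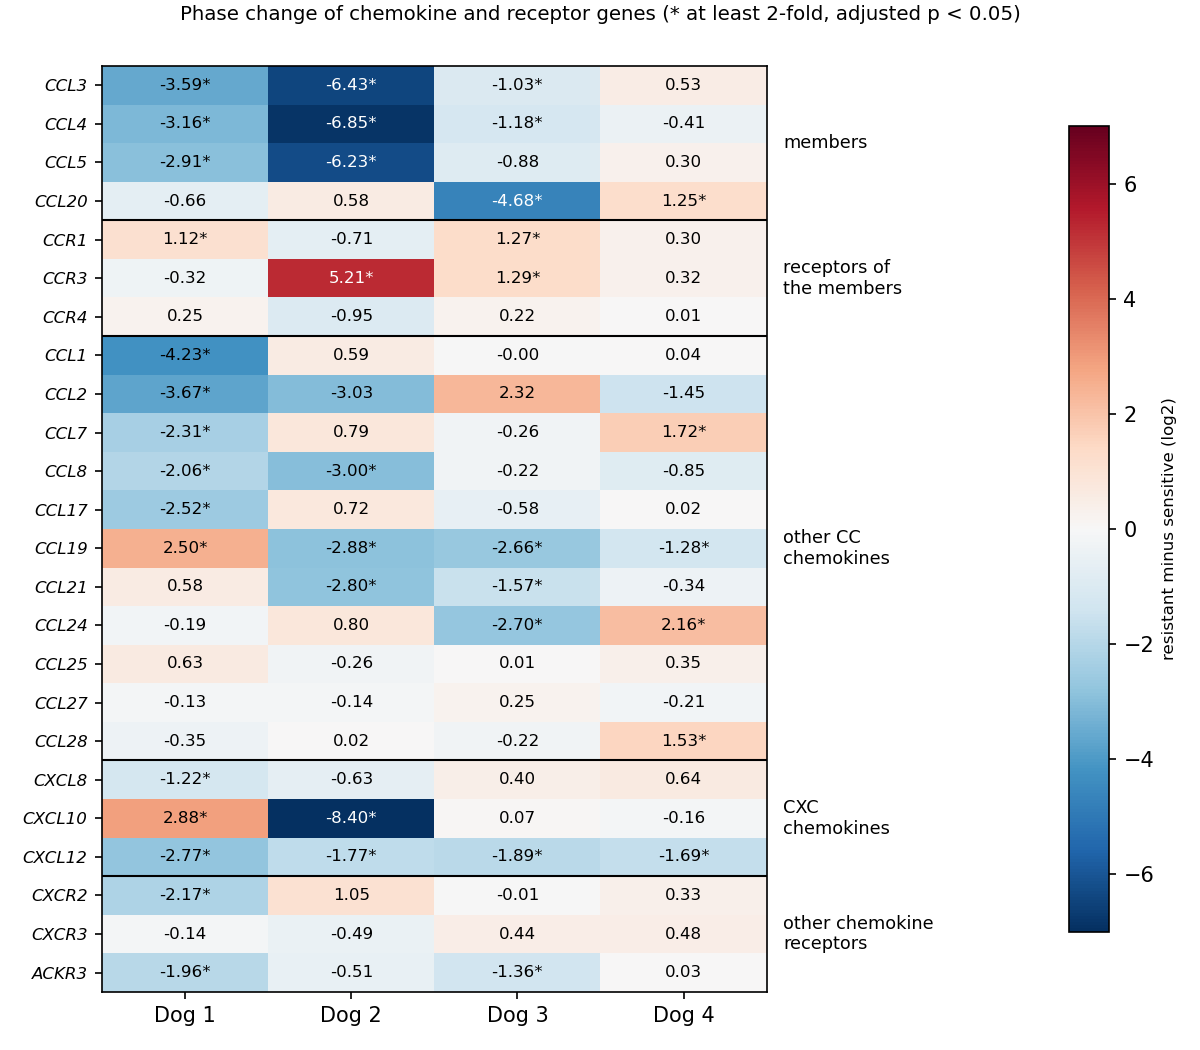
Phase change, resistant minus sensitive on the log2 scale (colour and printed value), of the 4 chemokine genes and of the measured receptors and other chemokines (rows) in each dog (columns); asterisks mark changes of at least 2-fold with an adjusted p under 0.05, and values of genes not well above background in a group are fitted values and no bounds. The colour scale ends at 7 in both directions, past which CXCL10 lies in dog 2. CCL3, CCL4 and CCL5 form a block of falls in dogs 1 and 2, while CCR1 and CCR3 hold the called rises among the receptors shown.

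Cytokines that induce these chemokines were described next. Of a list of 14, 10 were measured, of which 2, 5, 1 and 0 fell and 0, 1, 1 and 0 rose in dogs 1 to 4. The median changes were -0.49, -1.08, -0.53 and 0.01. Of all genes, 8.11%, 9.84%, 5.43% and 1.5% were called lower and 3.83%, 3.98%, 1.34% and 4.06% higher. The riser was IL6, interleukin 6, by 1.86 in dog 2 (SE 0.28, limma adjusted p = 1.21e-05). In the resistant phase of dog 3 IL6 was at least 2.97-fold higher (limma adjusted p = 4.42e-06), and it was not called in dogs 1 and 4. TNF, a classical inducer, was not called in any dog, with changes of -0.23, -0.68, -0.12 and 0.07. IFNG was well above background only in the sensitive phase of dog 2, where the level in the resistant phase was at least 11.7-fold lower (limma adjusted p = 1.25e-10). IL1A, interleukin 1 alpha, was at least 5.51-fold lower in the resistant phase of dog 1 and fell by 2.42 (SE 0.52) in dog 2. CD40LG, the CD40 ligand of helper T cells, fell in dogs 2 and 3 (-2.16 and -1.32, SE 0.11 each), with changes of -0.94 and -0.06 in dogs 1 and 4. With normexp IL1A stayed under 2-fold in both dogs (-0.58 and -0.52).

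Of 15 NF-kappaB factors and early targets, genes of the pathway through which many inflammatory stimuli switch on chemokines, 3 were measured. PTGS2, an inducible prostaglandin synthase, fell in dog 1 (-3.93, SE 0.15) and was at least 2.23-fold lower in the resistant phase of dog 2. In that of dog 4 it was at least 1.996-fold higher (limma adjusted p = 2.05e-05), and its change in dog 3 was 0.14. With normexp the calls in dogs 2 and 4 were lost (-0.22 and 0.12). In all, the call in dog 4 was lost in 7 of 14 alternatives and that in dog 2 in 2 of 16. NFKB1 and BIRC3 were not called in any dog, with changes between -0.02 and 0.35 for NFKB1 and between -0.21 and 0.29 for BIRC3. The other NFKB1 probe gave changes between -0.31 and 0.24.

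Markers of cell types that make CCL3, CCL4 and CCL5 moved with them in part. Of 14 T cell markers 5 were measured (CD4, CD8A, CD28, ICOS and CTLA4), and 3, 5, 3 and 0 had a call below 0 in dogs 1 to 4. The shares of all genes called lower were 8.11%, 9.84%, 5.43% and 1.5%. Median changes of the 5 markers were -1.17, -4.84, -1.28 and 0.64. The 3 in dog 1 were CD28, CTLA4 and ICOS, of which ICOS was well above background on 0 of 3 resistant and 0 of 3 sensitive arrays, so no fall of ICOS is given there, and its fitted value is the median of that dog. Their summed signal, relative to the 75th percentile of the array, was 0.273 to 0.284 on the resistant arrays of dog 2, against 4.41 to 4.65 on its sensitive arrays. The sums were 0.248 to 0.275 on resistant and 0.394 to 0.460 on sensitive arrays of dog 1, 0.315 to 0.429 on resistant and 0.482 to 0.535 on sensitive arrays of dog 3, and 0.502 to 0.537 on resistant and 0.350 to 0.416 on sensitive arrays of dog 4. Dog 2 thus had the widest gap of summed T cell signal as well as of CCL3, CCL4 and CCL5. In dog 4 the sum had a gap in the other direction, but 0 of the 5 markers were called there. The changes in dog 4 were 0.79 for CD4, 0.30 for CD28, 0.71 for ICOS and 0.64 for CTLA4, against -0.36 for CD8A. CD8A fell in dog 2 (-4.84, SE 0.37) and was not called in the other dogs, with changes of -0.34, -0.23 and -0.36. Its other, dimmer probe gave -1.71, -6.81, -1.56 and -1.03 in dogs 1 to 4.

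Of 12 markers of NK and cytotoxic cells KLRD1, the CD94 chain of NK cell receptors, was measured. It fell in dogs 1, 2 and 3, with changes of -1.56, -6.42 and -1.48 (SE 0.08 each), and its change in dog 4 was -0.03. With normexp it stayed under 2-fold in dogs 1 and 3 (-0.70 and -0.82), as did CD28, ICOS and CTLA4 in dog 3 (-0.57, -0.28 and -0.71) and CD28 and ICOS in dog 1 (-0.08 and -0.06). KLRD1 signal was 0.0133 to 0.0163 of the 75th percentile on the resistant arrays of dog 2, against 1.22 to 1.24 on its sensitive arrays. The part of T and NK cell RNA in the changes of CCL3, CCL4 and CCL5 was not tested.

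Of 14 macrophage markers 3 were measured, and in dog 2 none of them was called lower. FCGR1A, the high-affinity IgG receptor of monocytes and macrophages, fell in dogs 1 and 3 (-3.67 and -2.65) and rose in dog 2 (1.62, SE 0.10 each). CD163, a scavenger receptor of macrophages, fell in dog 3 (-1.33, SE 0.06), with changes of 0.53, -0.74 and 0.33 in dogs 1, 2 and 4, and its call in dog 3 was lost with normexp (-0.75). ADGRE1, the dog counterpart of the gene of the mouse F4/80 antigen, was not called in any dog, with changes of -0.16, -0.29, 0.85 and 0.49. The 3 markers thus had values of both signs in dogs 1, 2 and 3, and in dog 2 FCGR1A was the one with a positive change. The sum of the 3 markers was 0.734 to 0.764 on resistant and 1.44 to 1.48 on sensitive arrays of dog 1, and 0.277 to 0.292 on resistant and 0.202 to 0.219 on sensitive arrays of dog 2. It was 0.108 to 0.123 on resistant and 0.403 to 0.426 on sensitive arrays of dog 3, and 0.0967 to 0.107 on resistant and 0.0760 to 0.0783 on sensitive arrays of dog 4. The macrophage sum was thus lower in the resistant phase of dogs 1 and 3 and higher in that of dogs 2 and 4.

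Of 10 neutrophil markers 4 were measured (CAMP, MMP9, CXCR2 and ELANE), with sums of 0.121 to 0.159 on resistant arrays of dog 3, the dog in which CCL20 fell, against 3.17 to 3.33 on its sensitive arrays. The neutrophil sums were 0.239 to 0.296 on resistant and 2.16 to 2.35 on sensitive arrays of dog 1, 1.09 to 1.13 on resistant and 0.0922 to 0.144 on sensitive arrays of dog 2, and 0.429 to 0.449 on resistant and 0.480 to 0.591 on sensitive arrays of dog 4. CAMP, a granule peptide, fell in dogs 1 and 3 (-5.46 and -5.42) and rose in dog 2 (4.49, SE 0.47 each). MMP9, a granule protease, fell in dogs 1 and 3 (-1.97 and -4.92) and rose in dog 2 (2.52, SE 0.11 each) on its brightest probe. Of its other probes, 1 gave -1.98, 2.49, -4.60 and -0.01 in dogs 1 to 4. The last gave -0.86, -0.03, -1.59 and 2.71, so it had no rise in dog 2. ELANE, neutrophil elastase, went the other way from CAMP and MMP9 in dog 1, where it rose by 1.44 (SE 0.41, limma adjusted p = 0.00589). It fell in dog 3 (-2.12), with changes of 0.08 and 0.44 in dogs 2 and 4. CXCR2 had changes of -2.17, 1.05, -0.01 and 0.33 in dogs 1 to 4. CCL20 therefore shared the fall in dog 3 with CAMP, MMP9 and ELANE and was within 2-fold in dogs 1 and 2. Of 10 stromal markers 6 were measured, of which 3, 4, 4 and 1 fell and 0 rose in dogs 1 to 4. Of 7 dendritic cell markers 3 were measured, of which 1, 0, 2 and 0 fell and 0, 0, 1 and 0 rose. The riser was CD1C in dog 3 (1.11, SE 0.11), a call lost in 6 of 17 alternatives. The fall of FLT3 in dog 1 was lost in 7 of 17. Of all genes, 8.11%, 9.84%, 5.43% and 1.5% were called lower in dogs 1 to 4. The part of neutrophils, stromal cells and dendritic cells in the change of CCL20 was not tested. The B cell markers MS4A1 and CD40 were not called in any dog, with changes between -0.29 and 0.35, and their summed signal was 60.6 to 82.8 on resistant arrays and 54.7 to 77.8 on sensitive arrays over the 4 dogs.

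**Figure D4:**
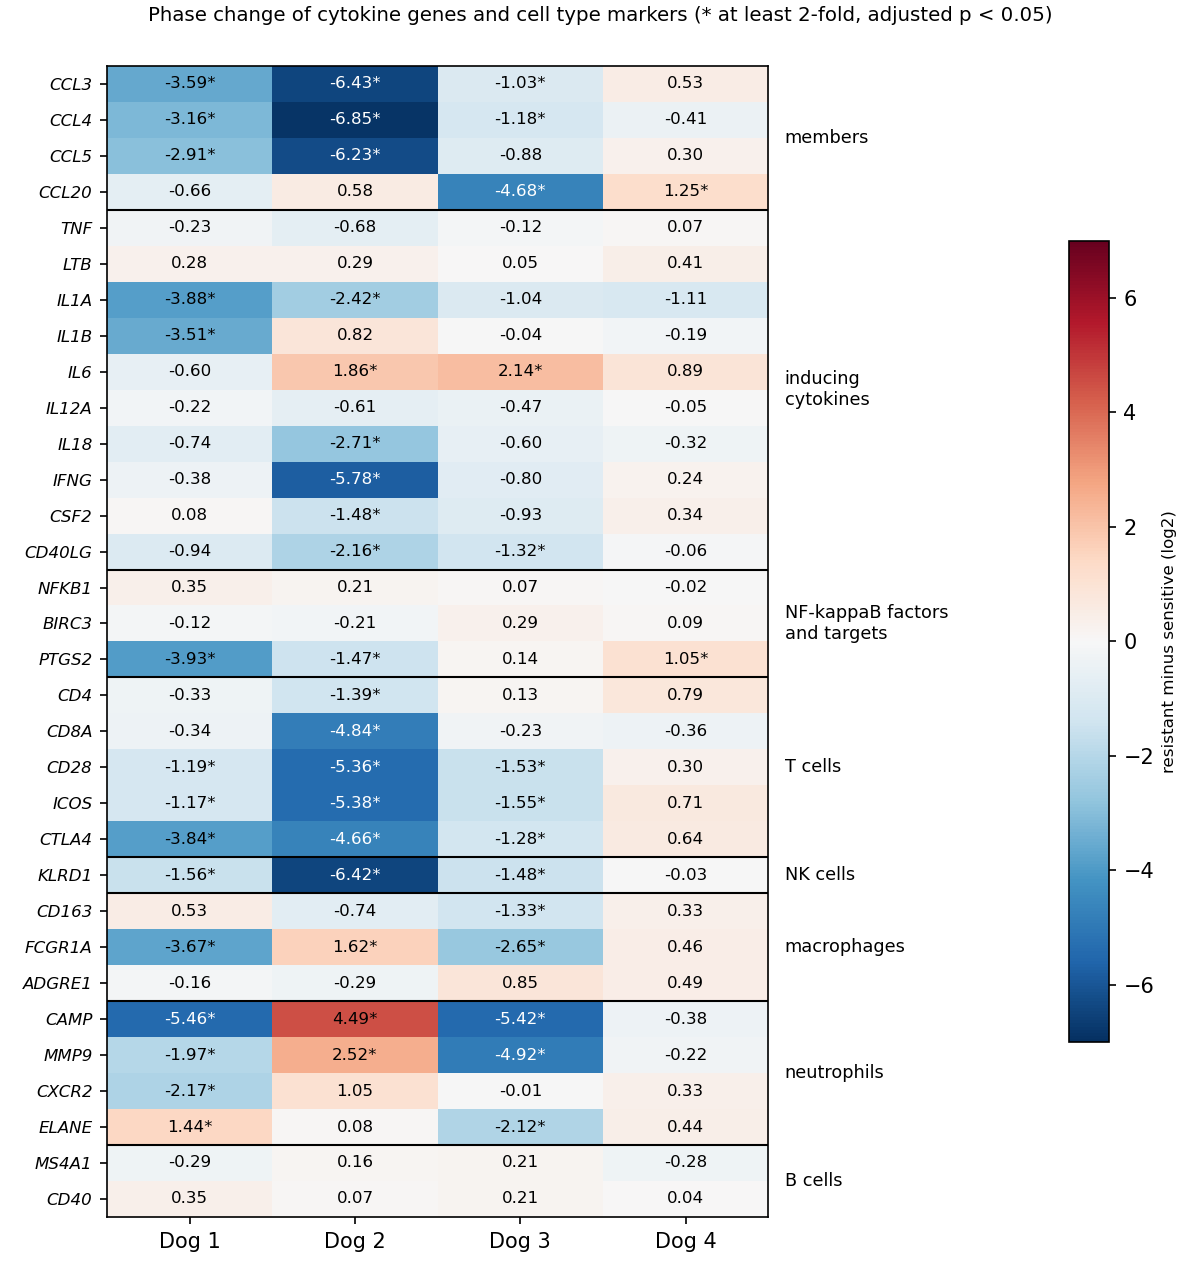
Phase change, resistant minus sensitive on the log2 scale (colour and printed value), of the 4 chemokine genes, the measured inducing cytokines, NF-kappaB genes and markers of T cells, NK cells, macrophages, neutrophils and B cells (rows) in each dog (columns); asterisks mark changes of at least 2-fold with an adjusted p under 0.05, and values of genes not well above background in a group are fitted values and no bounds. T cell genes and KLRD1 are lowest in dog 2, as are CCL3, CCL4 and CCL5. The neutrophil genes differ: CAMP and MMP9 (brightest probe) fall in dogs 1 and 3 and rise in dog 2. ELANE rises in dog 1 and falls in dog 3, and CXCR2 falls in dog 1 only.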

How the data were processed

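RNA was labelled with Cy3 and hybridised to one-colour arrays, per the labels' protocols. The scanner files hold spot intensity, deposited by the authors. Agilent Feature Extraction 10.7.3.1 made them, per the submitters' processing notes. The processed signal was background-subtracted and not normalised between arrays, per the file headers. The authors' deposited value table equalled the raw median intensity on all 24 arrays (largest difference 0): it is linear, uncentred and unnormalised, with array medians of 97 to 141. No source used here names a genome build.

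Deposited processed signals were taken to log2 and scaled by subtracting each array's own 75th percentile. Control spots (1417 of 45220) and outlier spots (6 to 195 per array) were left out, and 0 spots were saturated. A probe had to be well above background on the 3 arrays of some group (34550 of 43603 were), and the brightest probe stood for a gene. Accessions were matched to RefSeq names and gene order (assembly UU_Cfam_GSD_1.0), with 832 of 35908 identifiers found. Sequences were not used here.

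Limma 3.58.1 (R 4.3.3) was fitted within dogs to 24 arrays in 8 groups that shared 1 spread per gene. Across dogs it was fitted to the 8 group means, blocked by dog, because both phases come from the same animal. Tests were two-sided, and the scripts were tested on simulated data. The bound of a gene not well above background in a group sets the brighter group's mean against, per array, the higher of the lowest signal well above background and the gene's own. Same-numbered arrays of the phases did not deviate together (r between -0.13 and 0.09), so replicate numbers do not pair arrays. Alternatives were normexp (offset 50, on the median signal in place of the planned mean) with quantile normalisation, quantile normalisation alone, median scaling, other filters, the mean of probes, the value table, slide blocks, a replicate block and leaving out arrays or dogs. The random slide block was added after seeing the data.

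The members and lists were chosen with earlier results of these data known. By rule, the members, the measured receptors and other CC chemokines, the 3 genes of largest mean change of each further chemokine, receptor, cytokine and NF-kappaB list, and the 5 genes most like each member were named. TNF, IL6 and the named cell type markers were picked from their lists after their values were seen. A result for 1 gene that the rule picks is not reported here.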

Additional observations from a re-analysis of the deposited data

Results flagged for a closer look

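The phase change, resistant minus sensitive, differed between dogs for all 4 chemokine genes by limma's F-test of the dog-by-phase interaction, adjusted over all genes: CCL3 had adjusted p = 1.25e-09, CCL4 5.40e-18, CCL5 3.75e-17 and CCL20 6.08e-19. The same test passed for 78.8% of all genes. For CCL3, CCL4 and CCL5 the changes were -6.43, -6.85 and -6.23 in dog 2 and 0.53, -0.41 and 0.30 in dog 4, and for CCL20 -4.68 in dog 3 and 1.25 in dog 4.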

How the results depend on the processing

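Of 454 alternative results for the 4 chemokine genes, 434 kept their direction and their side of the threshold, 17 lost a call, 2 gained one and 1 turned its sign: the mean of CCL20 across dogs, 0.39 without dog 3. The cause of these differences was not tested. CCL3 in dog 3 lost its call with normexp (-0.17), quantile normalisation (-0.91), median scaling (-0.94), the authors' value table (-0.42), the slide as a block or within the slide that held both phases (-0.26 each) and the slide as a random block (-0.78). Its values ranged from -1.42 to -0.81 without single arrays, and 4 of 6 of these lost the call. CCL4 in dog 3 gave -0.80 with normexp and -0.996 with the value table, just under 2-fold, and CCL20 in dog 4 gave 0.83 and 0.99. The CCL3 difference between dogs 4 and 3 was 0.26 with normexp and 1.19 with the random slide block. With 24 arrays and the group as a random block, CCL4 (-2.90) and CCL5 (-2.43) passed across dogs. In that fit, whose units are arrays rather than dogs, 1726 of 27720 genes passed in place of 0. CCL3 in dog 1 was -3.59 in the main setting, -1.62 with normexp and -2.21 with the value table.

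Genes called in dogs 1 to 4 numbered 3310, 3832, 1877 and 1542; with normexp 849, 1546, 590 and 180; from the authors' values 1292, 2151, 867 and 235; with probes well above background on all arrays, which leaves out CCL3, 1534, 2140, 870 and 435. Without a filter, dog 4 had 2583. Without single arrays the counts ranged from 2735 to 3835, 3406 to 4099, 1725 to 2376 and 1240 to 1929. Higher calls made up 32.1%, 28.8%, 19.8% and 73.0% of calls; with median scaling 46.6% and 40.6% in dogs 1 and 2, with quantile normalisation 46.6% and 50.9% in dogs 1 and 4, and with normexp 44.4% in dog 4. With median scaling the median change of all genes was 0.12 in dog 1 and 0.26 in dog 2, in place of -0.06 and 0.11. With the replicate block, which the arrays' numbers do not justify, CCL4 changed by -3.16, -6.85, -1.18 and -0.41 in dogs 1 to 4, the calls of the 4 genes stayed as they were, and 3172, 3722, 1805 and 1437 genes were called. Slide as a fixed block was not run for dog 4, across dogs or for the full interaction, where it could not be fitted. Of other named genes, 114 alternative results lost a call and 27 gained one, and 52 uncalled changes of 200 changed sign in some alternative. CCL3 was well above background on 21 of 24 arrays, which limits its size in dogs 3 and 4.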
